A study of Mus musculus with 168 samples.

Results

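Motor neurons fall into classes by the muscle fibres they drive, and 8 genes used as markers of those classes are described here: Mmp9 and Chodl for fast alpha motor neurons, Esrrb for slow ones, Esrrg, Wnt7a and Htr1d for gamma motor neurons, and Rbfox3 and Spp1 for alpha motor neurons as a group. The 8 were taken by gene symbol from a table of 39410 rows, and each was present as a single row. All 8 passed the filter on low values in the fit over every population, which kept 22270 genes. In the fits of single populations Htr1d passed in the red nucleus, ocular and lumbar fits only, and the other 7 passed in all 6.

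The samples were delta7 mice, a model of spinal muscular atrophy (SMA), and littermate controls. SMA mice are Smn-/- and carry SMN2+/+ and SMN∆7+/+, and controls are Smn+/+ on the same 2 transgenes, so neither group is free of human SMN sequence. Neurons were cut by laser from frozen sections of the red nucleus, the oculomotor and trochlear nuclei (ocular), the facial, vagus and hypoglossal nuclei and the lumbar spinal cord at postnatal days 2, 5 and 10, which the submitters place before symptoms, early in them and late. There were 168 libraries of about 150 cells each from 34 mice (15 control, 19 SMA), which give 160 samples of 1 mouse and 1 population in 36 groups of 3 to 7 mice. In pools of this kind a change in the mix of cell classes and a change in RNA per cell cannot be told apart.

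Depth, recovered from the steps of low values, ran from 341800 to 16290000 reads per library with a median of 5893000. Smn1, the gene deleted in SMA mice, lay between 4.32 and 63.3 RPKM (read counts scaled by transcript length and library depth) in the 72 control samples. It was at 0 in 70 of 88 SMA samples and reached 4.24 at most, so the 2 genotypes did not overlap. Markers of motor neurons (Chat, Slc5a7, Isl1, Prph and Mnx1) summed to 452 to 1972 RPKM in the motor populations and to 4.15 to 100.5 in the red nucleus, while the red nucleus markers Pou4f1 and Slc17a6 summed to at most 176.9 in the motor populations, below each of the 23 red nucleus samples (median 381.4). The highest of these red nucleus sums in a motor sample, 176.9, came from the ocular sample of SMA mouse 250 at day 10, which also had the lowest motor neuron sum.

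Alpha motor neurons drive the force-producing fibres of a muscle, and gamma motor neurons drive the fibres inside muscle spindles that set the sensitivity of stretch sensing. Fast alpha motor neurons supply fibres that contract quickly and tire soon, slow ones supply fibres that resist fatigue, and in several motor neuron diseases of mice the fast units are lost first. Mmp9 encodes a secreted protease of the extracellular matrix, and Chodl encodes chondrolectin, a membrane protein with a C-type lectin domain. Esrrb and Esrrg are orphan nuclear receptors that bind DNA without a known natural ligand, Wnt7a is a secreted Wnt ligand, and Htr1d is an inhibitory serotonin receptor. Rbfox3 is the splicing factor detected by the NeuN antibody, and Spp1 encodes osteopontin, a secreted ligand of integrins and of Cd44.

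All 8 genes are protein-coding in GENCODE M21 on GRCm38. Chodl lies on chromosome 16 (78930948 to 78951733, plus strand), Mmp9 on chromosome 2 (164940780 to 164955850, plus), Esrrb on chromosome 12 (86361117 to 86521628, plus) and Esrrg on chromosome 1 (187608791 to 188214885, plus). Wnt7a lies on chromosome 6 (91363981 to 91411363, minus), Htr1d on chromosome 4 (136423524 to 136444398, plus), Rbfox3 on chromosome 11 (118489762 to 118911597, minus) and Spp1 on chromosome 5 (104435118 to 104441050, plus). Exons of 7 genes overlap no exon of another gene. Spp1 shares 309 exon bases with Gm42793 on the same strand, so reads of the 2 cannot be told apart there.

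Stretches of 250 bases upstream of the transcription start are shown for 3 of the genes, from RefSeq on GRCm38.p6. Chodl and Wnt7a are included because their levels moved together over populations, and Spp1 because it had the largest change with age. The start of the Wnt7a window's gene model lies 10 bases, and that of Spp1 7 bases, from the GENCODE start. All windows were searched on both strands for AAGGTCA (the core sequence bound by estrogen-related receptors such as Esrrb and Esrrg), TGANTCA (the AP-1 site) and TATAAA. Matches are in capitals.
Chodl, chr16:78930698-78930947, plus strand: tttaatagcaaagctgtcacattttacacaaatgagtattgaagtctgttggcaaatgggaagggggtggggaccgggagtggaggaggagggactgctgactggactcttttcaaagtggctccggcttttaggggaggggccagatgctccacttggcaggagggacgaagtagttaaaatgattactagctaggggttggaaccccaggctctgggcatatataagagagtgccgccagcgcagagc
Wnt7a, chr6:91411354-91411603, minus strand: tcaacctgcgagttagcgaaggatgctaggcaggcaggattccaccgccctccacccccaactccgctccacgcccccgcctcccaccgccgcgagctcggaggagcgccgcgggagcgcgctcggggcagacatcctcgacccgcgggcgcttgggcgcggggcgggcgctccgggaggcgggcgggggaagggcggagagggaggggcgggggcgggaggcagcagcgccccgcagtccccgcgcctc
Spp1, chr5:104434861-104435110, plus strand: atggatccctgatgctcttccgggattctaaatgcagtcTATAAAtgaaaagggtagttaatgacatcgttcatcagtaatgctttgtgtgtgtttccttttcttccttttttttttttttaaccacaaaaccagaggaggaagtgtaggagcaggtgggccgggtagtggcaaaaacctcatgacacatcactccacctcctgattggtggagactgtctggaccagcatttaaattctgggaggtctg
The Wnt7a window is 77.6% G and C, against 52% for Chodl and 43.6% for Spp1. Of these 3 windows only that of Spp1 held a match, a TATAAA from 211 to 206 bases before the start. Of the windows of the other members in the table, that of Esrrg held TGACTCA (42 to 36 bases before its start) and TATAAA on the opposite strand (19 to 14 bases before). The Esrrg window spans the GENCODE start of that gene, and its matches lie downstream of that start. The Rbfox3 window lies within the GENCODE gene, and its gene model starts 150556 bases from the GENCODE start. AAGGTCA occurred in none of the 7 member windows taken, which are thus not all upstream of the GENCODE starts listed above. Esrrg had 4 windows, and Esrrb, Htr1d and Spp1 had 2 each, and matches in their further windows were not recorded. Over all 32851 windows of this length in the table, 4.08% held AAGGTCA, 6.75% TGANTCA and 12.4% TATAAA on either strand.

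In control mice each of the 6 populations had its own combination of the markers. Lumbar neurons had the highest Chodl and Rbfox3 at every day and the highest Mmp9 at days 5 and 10. Ocular neurons had the highest Esrrb and Spp1 at every day. Red nucleus neurons, which are not motor neurons, had the highest Htr1d and Esrrg. Averaged over the days, vagus neurons were lower in all 8 than the mean of the other motor populations, although at single days they were not the lowest for Mmp9 and Htr1d. Each motor population was compared with the mean of the other 4, averaged over the 3 days, the red nucleus with the mean of the 5 motor populations, and lumbar with ocular. Of the 56 tests of a member, 43 passed an adjusted p of 0.05. The share of all 22270 genes past that threshold was 16.5% for lumbar, 18.3% for ocular, 7.49% for facial, 8.54% for hypoglossal, 26.8% for vagus, 20.8% for the red nucleus and 14.5% for lumbar against ocular. Differences below are in log2(RPKM + 1), which understates changes at low levels, with their standard errors.

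**Figure D1:**
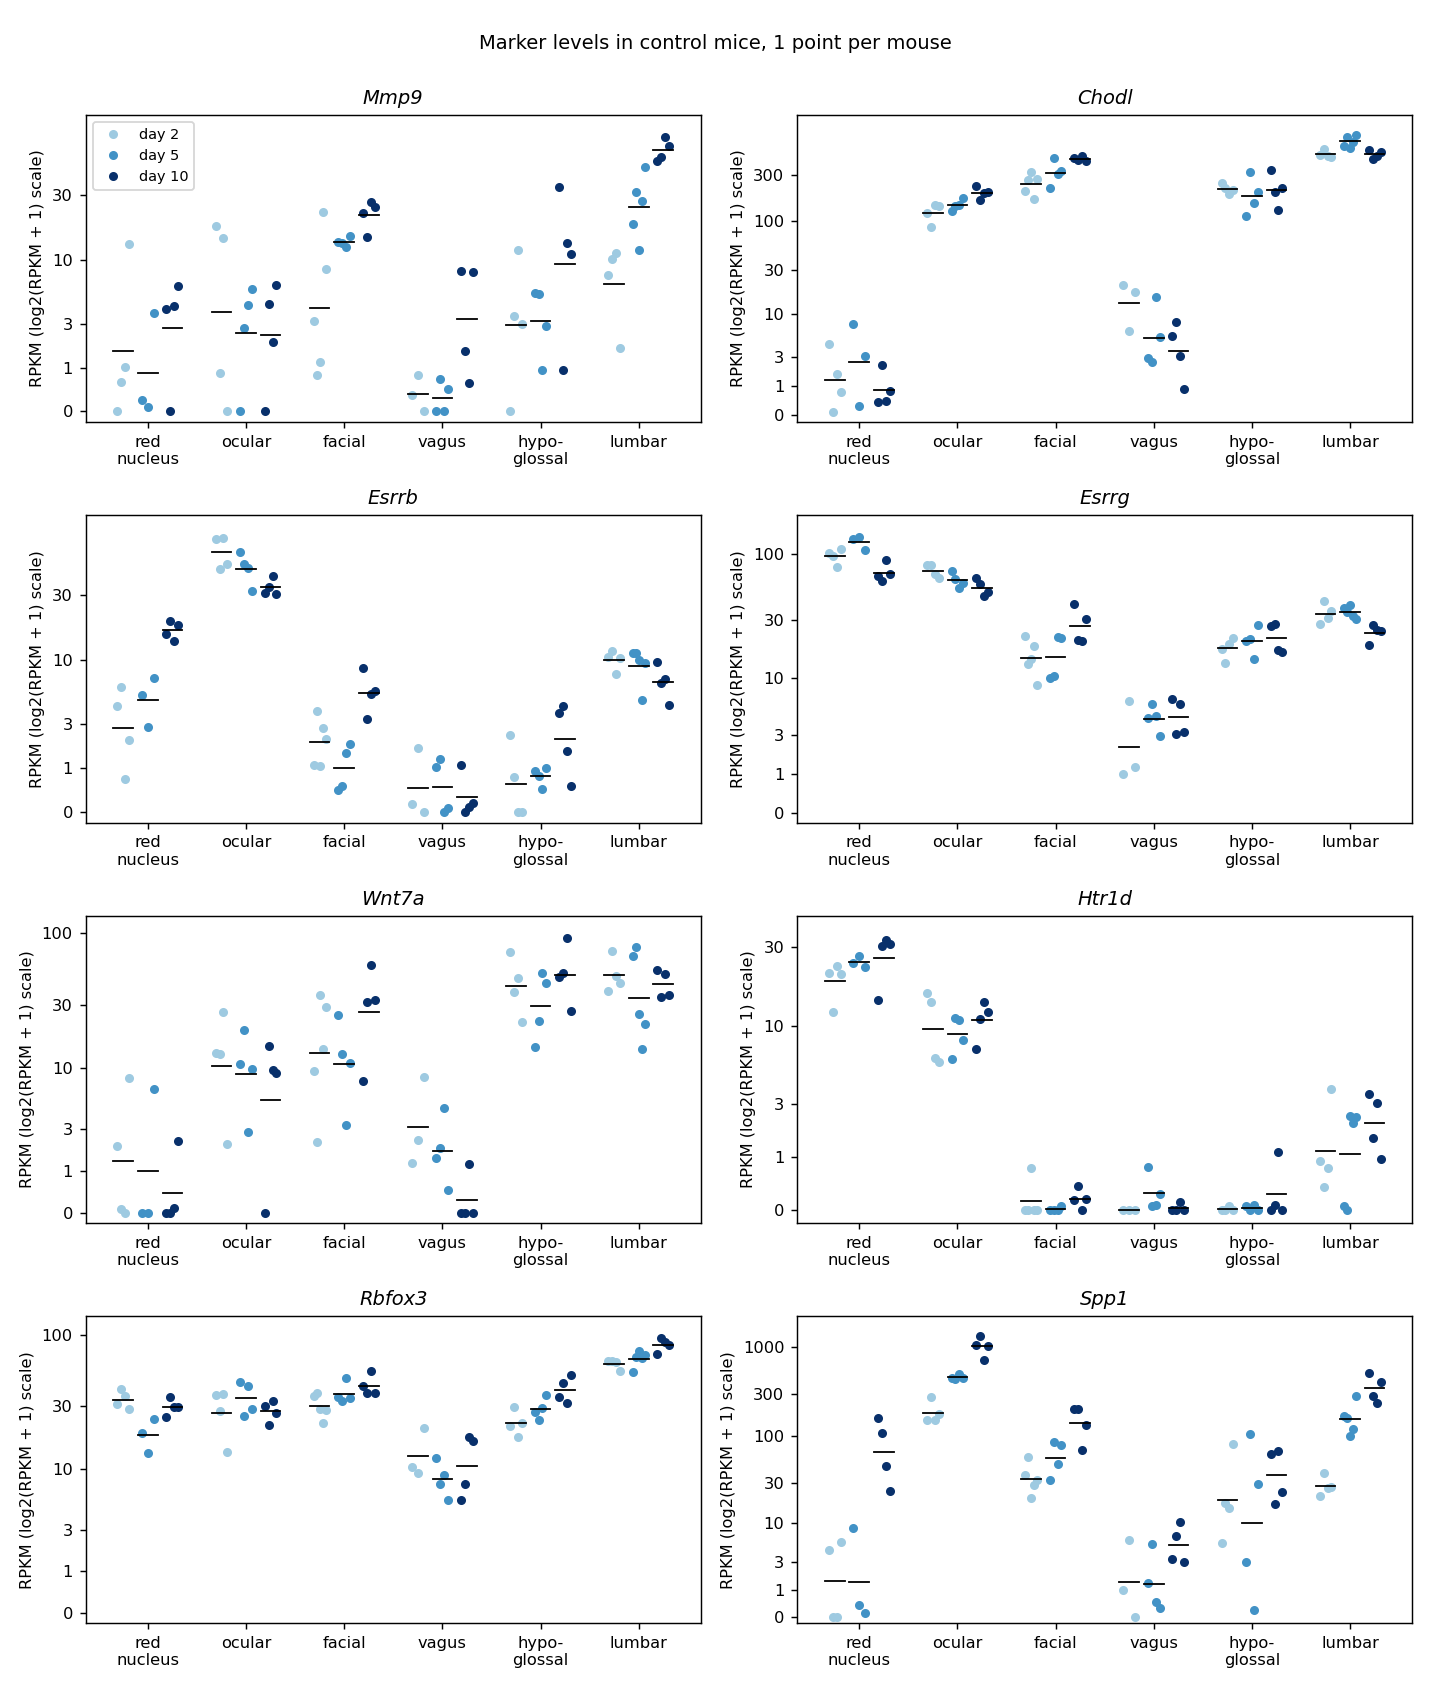
RPKM of the 8 markers in control mice on a log2(RPKM + 1) axis, by population, with 1 point per mouse, shades of blue for days 2, 5 and 10 and black lines at the mean of log2(RPKM + 1). Lumbar points lie highest for Chodl and Rbfox3, ocular points for Esrrb and Spp1, and vagus points for Chodl reach 20.9 RPKM at most.

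Chodl gave the widest spread among the fast markers. Over the control mice of all days its lowest, median and highest values were 438, 546 and 780.5 RPKM in lumbar neurons, 169.5, 318 and 469 in facial, and 85.8, 146 and 231.6 in ocular neurons. In hypoglossal neurons the median was 203.7 and the highest value 339.5. In vagus neurons the lowest, median and highest were 0.840, 5.49 and 20.9, and in red nucleus neurons 0.0810, 0.786 and 7.78. The vagus and red nucleus ranges lay wholly below those of the other 4 populations, with no shared values. Chodl was 2.55 ± 0.18 higher in lumbar neurons than in the other motor populations (adjusted p = 5.91e-26), 1.61 ± 0.18 higher in facial (3.74e-13) and 0.77 ± 0.18 higher in hypoglossal neurons (0.00104). It was lower in vagus neurons (-5.19 ± 0.19, 7.84e-53) and in the red nucleus (-5.75 ± 0.19, 3.34e-58). Ocular neurons did not differ detectably from the mean of the rest (0.26 ± 0.18, adjusted p = 0.398), a mean that includes the low vagus values. By daily means they ranked below lumbar, facial and hypoglossal neurons at every day, and the ocular and hypoglossal ranges overlapped at days 5 and 10. In the order of daily means, lumbar stood above facial with no overlap at days 2 and 5, but at day 10 the 2 ranges met, with means of 492.9 and 438 RPKM. Facial and hypoglossal ranges overlapped at days 2 and 5 and were apart at day 10.

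Mmp9 was lower and far more variable than Chodl. Its lowest, median and highest control values were 1.72, 27.0 and 76.3 RPKM in lumbar neurons, 0.768, 13.6 and 26.8 in facial, and 0, 4.50 and 34.0 in hypoglossal neurons. The medians were 3.59 in ocular, 1.03 in red nucleus and 0.570 in vagus neurons, with mice at 0 in each. Mmp9 was 2.29 ± 0.34 higher in lumbar neurons than in the other motor populations (adjusted p = 2.86e-08), and it was lower in vagus neurons (-2.19 ± 0.37, 2.95e-07) and in the red nucleus (-1.31 ± 0.36, 0.00341). At day 2 all neighbours in the order of means overlapped, and ocular (8.35 RPKM), lumbar (7.77) and facial neurons (7.27) could not be ranked. Facial neurons were 1.11 ± 0.34 higher (adjusted p = 0.0248) and ocular neurons lower (-0.95 ± 0.35, 0.0450). Neither of these 2 is stable: the adjusted p rose above the threshold without any 1 of 4 of 15 control mice (29, 240, 244 and 253) for facial, up to 0.0998, and without any 1 of 7 of 15 (26, 29, 30, 240, 244, 247 and 253) for ocular, up to 0.236. The ocular one also missed it under 4 other settings, a pseudocount of 0.1 (0.0992), no filter on low values (0.0609), quantile normalization (0.0536) and without trochlear-only libraries (0.0517).

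Esrrb, the slow marker, was an ocular gene in these samples. Its lowest, median and highest control values were 30.5, 46.3 and 75.7 RPKM in ocular neurons, against 4.42, 9.77 and 11.7 in lumbar and 0.682, 6.23 and 19.5 in red nucleus neurons. The highest value was 8.72 in facial, 4.37 in hypoglossal and 1.76 in vagus neurons. No control mouse of another population reached the ocular range. Esrrb was 3.90 ± 0.19 higher in ocular neurons (adjusted p = 1.01e-39) and 1.05 ± 0.18 higher in lumbar neurons (2.47e-06) than in the other motor populations. It was lower in vagus (-2.41 ± 0.20, 1.21e-21), hypoglossal (-1.73 ± 0.19, 1.83e-13) and facial neurons (-0.81 ± 0.18, 0.000684). With a pseudocount of 0.1 in place of 1 the facial difference was -0.53 and no longer passed (adjusted p = 0.503).

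Of the gamma markers, Esrrg and Htr1d shared a pattern that Wnt7a did not follow. Esrrg had its highest control level in the red nucleus, with a lowest, median and highest value of 60.7, 95.7 and 135, followed by ocular neurons (46.5, 63.7 and 80.8), lumbar neurons (18.8, 31.3 and 42.7), facial neurons (8.68, 20.3 and 39.8), hypoglossal neurons (13.5, 19.7 and 27.7) and vagus neurons (0.998, 4.36 and 6.65). The red nucleus and ocular ranges overlapped at days 2 and 10 and not at day 5. Esrrg was 2.22 ± 0.13 higher in the red nucleus than in motor neurons (adjusted p = 7.39e-33) and 2.05 ± 0.13 higher in ocular neurons than in the other motor populations (1.69e-30). It was 0.77 ± 0.12 higher in lumbar (2.06e-07) and lower in vagus neurons (-2.71 ± 0.13, 1.49e-40).

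Htr1d was close to absent outside 3 populations. Its lowest, median and highest control values were 12.3, 23.3 and 33.1 RPKM in the red nucleus, 5.93, 11.03 and 16.0 in ocular neurons and 0, 1.57 and 3.87 in lumbar neurons. The medians of the facial, vagus and hypoglossal control samples were 0, and 8 of 13, 6 of 11 and 7 of 12 samples were listed at 0. All 3 vagus control mice at day 2 were at 0, where 3 reads would have given at most 0.149 RPKM, so the ocular mean of that day, 10.6, was at least 71.2-fold higher. Htr1d was 3.57 ± 0.16 higher in the red nucleus than in motor neurons (adjusted p = 1.06e-44) and 3.03 ± 0.15 higher in ocular neurons than in the other motor populations (2.55e-38). The lumbar difference from the other motor populations was 0.31 ± 0.15 (adjusted p = 0.157).

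Wnt7a was highest in lumbar and hypoglossal neurons, with a lowest, median and highest control value of 13.9, 43.1 and 80.4 RPKM and of 14.5, 45.1 and 93.03, and these 2 overlapped at every day. The values were 2.23, 14.0 and 59.4 in facial and 0, 10.2 and 26.6 in ocular neurons, and the medians were 1.28 in vagus and 0.0647 in red nucleus neurons. Wnt7a was 1.95 ± 0.34 higher in lumbar (adjusted p = 1.48e-06) and 1.86 ± 0.34 higher in hypoglossal neurons (1.25e-05), and lower in vagus (-3.22 ± 0.36, 8.37e-14) and red nucleus neurons (-2.96 ± 0.35, 3.65e-12). The ocular difference was -0.85 ± 0.34 and missed the threshold (adjusted p = 0.0737).

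The alpha markers also parted. Rbfox3 had a control range of 54.0 to 95.2 RPKM in lumbar neurons, which lay above nearly all others: the highest values were 54.5 in facial, 50.8 in hypoglossal, 45.7 in ocular, 40.3 in red nucleus and 20.7 in vagus neurons. It was 1.52 ± 0.13 higher in lumbar neurons (adjusted p = 3.17e-19) and lower in vagus neurons (-1.81 ± 0.14, 6.07e-23), and its other differences from the remaining motor populations did not pass (facial 0.34 ± 0.13, ocular -0.03 ± 0.14, hypoglossal -0.02 ± 0.14). Spp1 was 4.05 ± 0.34 higher in ocular neurons (8.28e-21) and 1.63 ± 0.33 higher in lumbar neurons (4.07e-05). It was lower in hypoglossal (-1.51 ± 0.34, 0.000427), vagus (-4.79 ± 0.35, 3.84e-25) and red nucleus neurons (-2.66 ± 0.34, 9.88e-11).

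Set directly against each other, lumbar and ocular neurons differed in all 8 genes. Lumbar neurons were higher for Mmp9 (by 2.59 ± 0.44, adjusted p = 1.16e-06), Wnt7a (2.24 ± 0.43, 2.07e-05), Chodl (1.84 ± 0.23, 3.37e-11) and Rbfox3 (1.24 ± 0.17, 1.56e-09). Ocular neurons were higher for Esrrb (lumbar minus ocular -2.28 ± 0.23, 8.22e-15), Htr1d (-2.17 ± 0.19, 4.04e-19), Spp1 (-1.94 ± 0.42, 0.000191) and Esrrg (-1.02 ± 0.16, 6.78e-08). The 4 genes higher on the lumbar side thus include both fast markers, 1 gamma and 1 alpha marker, and the 4 on the ocular side the slow marker, 2 gamma markers and 1 alpha marker.

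The ocular samples held 2 nuclei. Of the ocular libraries 23 joined the oculomotor and trochlear nuclei, 7 held the oculomotor and 4 the trochlear nucleus alone. In the 4 mice with a library of each, trochlear values were higher in 3 mice for Chodl, Spp1, Mmp9 and Wnt7a. They were higher in 2 mice for Esrrg and Rbfox3 and in 1 mouse for Esrrb and Htr1d. Chodl was 136 RPKM in the oculomotor and 147 in the trochlear library of control mouse 30, 146 and 201.6 in control mouse 75, 199.5 and 199.3 in control mouse 254, and 87.65 and 187.4 in SMA mouse 196. The mean difference in log2(RPKM + 1), trochlear minus oculomotor, was 0.42 ± 0.49 for Chodl (SD, n = 4) and did not pass an exact two-sided sign-flip test over the 4 mice (p = 0.25, adjusted over the 8 genes 0.5). The lowest p of any of the 8 was 0.25, and 4 pairs cannot give one below 0.125.

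Lists of each class, which hold the members and other genes, followed the class names only in part. On the fast list (Mmp9, Chodl, Calca, Dlk1 and Kcnq5), 4 of 5 were higher in lumbar neurons and none was lower, with a list median of 2.29 against -0.02 for all genes. That median is the value of Mmp9 itself, and the 4 include the members Mmp9 and Chodl. Of the other genes, Calca and Dlk1 passed and Kcnq5 did not. All 5 were higher in lumbar than in ocular neurons. Calca, which encodes the peptide CGRP, was 2.72 ± 0.28 higher in lumbar (adjusted p = 1.37e-14) and 3.09 ± 0.29 higher in hypoglossal neurons (8.09e-17), and lower in vagus neurons (-7.07 ± 0.30, 1.96e-45). Dlk1, a membrane ligand of the Notch system that promotes fast motor neuron properties, was 2.12 ± 0.24 higher in lumbar (8.13e-13) but also 1.44 ± 0.26 higher in vagus neurons (1.59e-06), where Chodl and Mmp9 were lower. Layn, a C-type lectin related to Chodl, was 2.28 ± 0.25 higher in lumbar (3.12e-13), 1.61 ± 0.25 in facial (3.32e-07) and 1.82 ± 0.26 in hypoglossal neurons (1.1e-08), and lower in ocular neurons (-3.25 ± 0.26, 1.43e-21), where the Chodl difference was 0.26. The other 3 genes of that list of lectin relatives (Clec14a, Thbd and Cd248) did not pass in lumbar neurons.

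On the slow list (Esrrb, Sv2a, Prkcd, Kcnn2 and Kcnn3), 2 of 5 were higher in ocular neurons, Esrrb and Kcnn2 (0.96 ± 0.14, adjusted p = 1e-08), with a list median of 0.16 against -0.05 for all genes. Kcnn2 encodes a calcium-activated potassium channel of the afterhyperpolarisation. Sv2a, a synaptic vesicle protein used to mark slow motor neurons, was lower in lumbar neurons (-0.44 ± 0.11, 0.00229), 1.07 ± 0.12 higher in vagus (1.68e-13) and 1.47 ± 0.12 higher in red nucleus neurons (2.61e-21). Prkcd, a protein kinase C, was 2.54 ± 0.23 higher in vagus neurons (1.31e-18), where Esrrb was near 0. The members of the slow list therefore did not share 1 order over populations.

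On the gamma list (Esrrg, Wnt7a, Htr1d, Gfra1, Creb5, Stxbp6 and Plch1), all 7 were lower in vagus neurons (list median -2.39, all genes -0.01), and 6 of 7, all but Htr1d, were higher in lumbar neurons (0.82 against -0.02). These counts include the members Esrrg, Wnt7a and Htr1d, and the genes that are not members passed in both comparisons. For Htr1d both contrasts are with a mean that includes the higher ocular level. Its control means were 0.1101 RPKM in vagus, 0.1099 in facial, 0.1125 in hypoglossal and 1.68 in lumbar neurons. Gfra1, the binding receptor for the neurotrophic factor GDNF, was 1.09 ± 0.15 higher in lumbar (adjusted p = 6.97e-10) and 1.52 ± 0.15 higher in facial neurons (2.68e-16), and lower in the red nucleus (-3.52 ± 0.15, 1.01e-44), where Esrrg and Htr1d were highest. In ocular neurons 3 were higher (Esrrg, Htr1d and Stxbp6, the last by 0.68 ± 0.20, 0.00955) and 2 were lower (Creb5, -0.84 ± 0.20, 0.000656, and Gfra1, -0.47 ± 0.15, 0.0142).

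Partners of the nuclear receptors, the protease, osteopontin, the Wnt ligand, the serotonin receptor and the splicing factor were listed as well. Ppargc1a, a coactivator of the estrogen-related receptors, was 2.01 ± 0.16 higher in ocular (adjusted p = 1.04e-22) and 1.59 ± 0.16 higher in red nucleus neurons (7.9e-16), the populations high in Esrrg, and lower in lumbar neurons (-0.68 ± 0.15, 0.000262). On that list of 5 measured genes 2 were higher and 2 lower in ocular neurons. Of 11 tested matrix proteases and their inhibitors, 4 were higher in lumbar neurons and none lower: Timp3 (1.14 ± 0.20, 3.24e-06), Mmp15 (1.07 ± 0.18, 6.64e-07), Mmp17 (0.71 ± 0.16, 0.000235) and Timp2 (0.36 ± 0.08, 0.000438). Of 8 osteopontin receptors, 1 was higher in ocular neurons, the integrin subunit Itgav (1.07 ± 0.28, 0.00185), and 3 were lower, among them Cd44 (-1.48 ± 0.21, 2.99e-09). Of all 22270 genes, 1695 were higher and 2376 lower in ocular neurons. Cd44 was 2.12 ± 0.20 higher in facial neurons (2.18e-16).

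Of 9 tested genes of Wnt secretion and reception, 1 was higher in lumbar neurons (Wnt7b, 0.70 ± 0.21, adjusted p = 0.0119) and 1 lower (Fzd5, -0.40 ± 0.11, 0.00514). That is near the share of all genes, of which 1858 of 22270 were higher and 1825 lower in lumbar neurons. Of 8 other serotonin receptors none was higher in ocular neurons, where Htr1d was, and 3 were lower, among them Htr2c (-1.38 ± 0.23, 9.34e-07). In the red nucleus the closely related receptor Htr1b (1.05 ± 0.18, 5.46e-07) and Htr5a (0.98 ± 0.17, 1.1e-06) were higher too. Htr7 (-1.62 ± 0.16, 1.27e-15) and Htr1f (-0.81 ± 0.20, 0.000808) were lower there, so the other receptors shared no direction. Rbfox1, a splicing factor of the same family as Rbfox3, was lower in vagus neurons (-2.25 ± 0.09, 1.03e-47) and 0.49 ± 0.09 higher in lumbar neurons (2.13e-06), the same directions as Rbfox3. It was also higher in facial (0.94 ± 0.09, 2.67e-17) and hypoglossal neurons (0.86 ± 0.09, 6.35e-15), where Rbfox3 did not pass, while Rbfox2 was 0.53 ± 0.09 higher in vagus neurons (1.44e-07).

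Patterns over the 18 control groups of population and day were compared by Pearson's r of log2(mean RPKM + 1), as a description over groups that share mice and depth. Chodl and Wnt7a had r = 0.919, Mmp9 and Rbfox3 0.842, Esrrg and Htr1d 0.838, and Esrrb and Esrrg 0.725. Among 22269 other genes the closest to Chodl were Sema3a (0.974), Gfra1 (0.971) and Syndig1l (0.969), so that the second nearest pattern to a fast marker belonged to a gene of the gamma list. The closest to Wnt7a were Calca (0.930), a gene of the fast list, Anxa2 (0.929) and Adam19 (0.922). Those to Esrrb were Fam162a (0.923), Epn3 (0.895) and Kcnn2 (0.884), to Esrrg Zfp385b (0.948), St8sia5 (0.916) and Cadm2 (0.894), and to Htr1d Bri3bp (0.923), Kcnn1 (0.920) and Sgk1 (0.916). Those to Rbfox3 were Cacng2 (0.922), Ankrd13d (0.917) and Amer1 (0.916), to Spp1 Ttc39b (0.936), Suclg1 (0.931) and Nos1ap (0.920), and to Mmp9 Ppp3ca (0.875), Ell2 (0.862) and Lrsam1 (0.859). Over the 18 SMA groups the r of Chodl was 0.979 with Sema3a, 0.932 with Gfra1 and 0.965 with Syndig1l. That of Mmp9 was 0.519 with Ppp3ca, 0.788 with Ell2 and 0.680 with Lrsam1. Lower values than in controls were also found for Rbfox3 with Ankrd13d (0.676) and Esrrb with Kcnn2 (0.744), and higher ones for Esrrg with Cadm2 (0.902) and Htr1d with Sgk1 (0.930). These genes were picked for the highest r in controls, and a difference between genotypes was not tested.

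Between day 2 and day 10 in controls, the alpha marker Spp1 rose in 4 populations and the fast marker Mmp9 in 2, and the gamma markers passed in none (Htr1d was testable in 3). Of 45 tests of a member, 9 passed, all of them rises. In 1 fit over all 36 groups 5 of the 9 passed, and facial Esrrg (0.82, adjusted p = 0.0417, 0.172 in the facial fit) and vagus Chodl, which fell (-1.66, 0.0157, 0.288 in the vagus fit), passed there only. The share of all tested genes past the threshold was 11.1% in the red nucleus, 8.02% in ocular, 5.36% in facial, 1.02% in vagus and 5.11% in hypoglossal neurons, and 12% in lumbar neurons.

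Spp1 in ocular controls was 151, 153.2, 179.6 and 278 RPKM at day 2, 433, 448, 449.6 and 492.6 at day 5, and 720.2, 1029, 1047 and 1335 at day 10, with no overlap between days. It rose by 2.45 ± 0.33 (adjusted p = 2e-05). In lumbar controls it went from 20.9, 25.9, 26.4 and 38.3 at day 2 through 101.1, 120.5, 158.8, 168.9 and 280.4 at day 5 to 238.2, 282, 408 and 511 at day 10, a rise of 3.61 ± 0.35 (1.64e-08). In the red nucleus the 4 controls were at 0, 0, 4.53 and 5.76 at day 2 and at 23.6, 46.8, 108 and 158.8 at day 10 (4.77 ± 0.78, 0.000283), and facial controls rose by 2.04 ± 0.43 (0.00387) from a mean of 35.4 ± 14.7 (SD, n = 5) to 152 ± 63.8 (n = 4). In 1 fit over all 36 groups the facial rise did not pass (0.0632). The hypoglossal (0.90 ± 1.17, 0.758) and vagus differences (1.39 ± 0.72, 0.427) were above 0 and did not pass. Vipr2, a peptide receptor of the alpha list, rose in ocular (3.35 ± 0.50, 6.25e-05), facial (2.38 ± 0.48, 0.00236) and lumbar neurons (1.73 ± 0.36, 0.00125). The list also holds Spp1 itself and Rbfox3, which passed in no population. Of all tested genes 696 of 15890 rose in ocular, 449 of 17270 in facial and 779 of 16382 in lumbar neurons.

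Myelin markers of oligodendrocytes rose in the same period. Of 4 (Mbp, Mog, Mag and Cnp), 4 rose in red nucleus, ocular, hypoglossal and lumbar neurons, 3 in facial neurons and none of the 3 tested in vagus neurons. Their summed level in lumbar controls was 15.9 to 39.9 RPKM at day 2 and 409 to 916 at day 10. In hypoglossal controls it was 30.4 to 77.8 at day 2 and 139.8 to 544.8 at day 10. The Spp1 difference there, given above, was above 0 with a wide standard error and did not pass, which does not show that Spp1 stayed level. The sum of 8 microglial markers in red nucleus controls was 21.3 to 44.8 at day 2 and 17.7 to 27.9 at day 10. The part of other cells in the Spp1 difference was not tested.

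Mmp9 in lumbar controls was 1.72, 7.72, 10.3 and 11.4 RPKM at day 2, 11.96, 18.5, 27.0, 31.6 and 47.6 at day 5, and 52.4, 55.2, 66.1 and 76.3 at day 10. The 3 ages did not overlap, and the rise from day 2 to day 10 was 3.05 ± 0.45 (adjusted p = 1.5e-05). Mmp9 is also a gene of neutrophils and activated myeloid cells. The summed level of 8 markers of such cells in lumbar controls was 7.64 to 28.9 at day 2 and 0.285 to 6.41 at day 10, with S100a9, Ly6g and Mmp8 at 0 in each mouse of both ages, and the part of such cells in the Mmp9 difference was not tested. In facial controls Mmp9 was 0.768, 1.19, 3.17, 8.59 and 22.6 at day 2 and 14.8, 22.1, 24.6 and 26.8 at day 10 (2.13 ± 0.64, adjusted p = 0.0487). That call rests on single mice, since the adjusted p was above the threshold, up to 0.137, without any 1 of 7 of the 9 mice (14, 26, 28, 247, 252, 253 and 254), and it was 0.0886 with a pseudocount of 0.1, 0.0910 without a filter on low values and 0.0655 in 1 fit over all 36 groups. In ocular neurons the Mmp9 difference was -0.54 ± 0.81 (0.766).

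In lumbar neurons the median of all genes was -0.10. The remaining calls were Chodl in facial (0.87 ± 0.22, adjusted p = 0.0161) and ocular neurons (0.69 ± 0.18, 0.0145) and Esrrb in the red nucleus (2.24 ± 0.44, 0.00151). Facial controls had Chodl at 169.5, 206, 265, 269 and 318 RPKM at day 2 and at 414, 423, 446 and 469 at day 10. The adjusted p for facial Chodl was 0.0520 without control mouse 240 and 0.0522 without control mouse 253, and for ocular Chodl 0.0740 without control mouse 26 and 0.0607 without control mouse 247. In 1 fit over all 36 groups neither passed (0.197 for facial and 0.380 for ocular Chodl). Lumbar Chodl differed by 0.01 ± 0.15 between the ages, with a mean of 670.3 ± 88.3 (SD, n = 5) at day 5 above both. Reads of an earlier deposit had been added to those 5 lumbar control libraries at mapping, per the labels, and the part of this in the day 5 level was not tested. Red nucleus Esrrb went from 0.682, 2.10, 4.32 and 6.22 to 13.9, 15.7, 18.2 and 19.5. In ocular neurons, by contrast, Esrrb had a mean of 61.4 ± 15.8 (SD, n = 4) at day 2 and of 34.1 ± 4.9 (n = 4) at day 10, a difference that did not pass (-0.80 ± 0.29, adjusted p = 0.0902). On the gamma list none of the 3 members passed in lumbar neurons, and Creb5 (-1.33 ± 0.31, 0.00392) and Gfra1 (-0.69 ± 0.21, 0.0310) fell there.

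**Figure D2:**
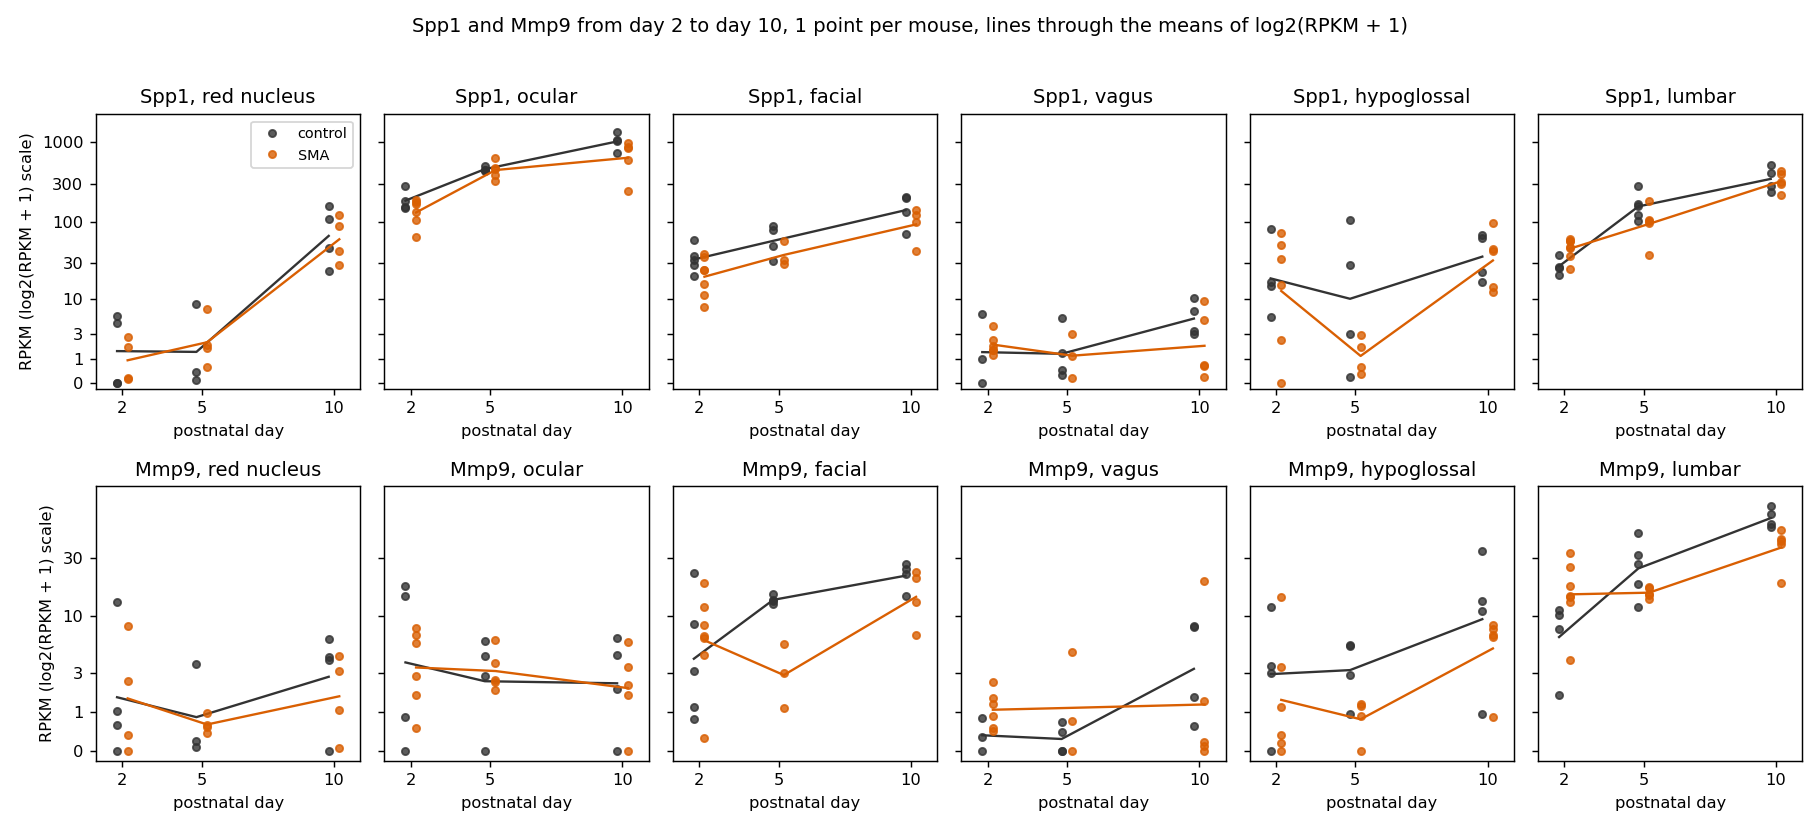
RPKM of Spp1 (top) and Mmp9 (bottom) against postnatal day on a log2(RPKM + 1) axis, by population, with 1 point per mouse in grey for controls and orange for SMA mice and lines through the means of log2(RPKM + 1). Spp1 climbs in ocular and lumbar neurons of both genotypes, and Mmp9 climbs in lumbar controls from 1.72 to 11.4 at day 2 to 52.4 to 76.3 at day 10.

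Between SMA and control mice 1 of the 8 genes passed the threshold, the fast marker Chodl, which was lower in facial and lumbar SMA neurons at day 10. Neither of these differences passed in 1 fit over all 36 groups. Each population was compared between genotypes at each day, in 18 comparisons, and 2 of 135 tests of a member passed, both lower in SMA. The share of all tested genes past the threshold, at days 2, 5 and 10 in turn, was 0.0434%, 0.0062% and 0.0124% in the red nucleus, 0.132%, 0.0252% and 0.359% in ocular, and 0.0232%, 0.0695% and 0.666% in facial neurons. It was 0.00599% at each day in vagus neurons, 0.0364%, 0.00607% and 0.0728% in hypoglossal, and 0.0122%, 0.0488% and 0.775% in lumbar neurons. Counting only genes lower in SMA at day 10, the share was 0.104% in facial and 0.0671% in lumbar neurons. The median difference of all genes was within 0.1 of 0 in all but 2 of these comparisons, the red nucleus at day 2 (0.11) and at day 10 (0.13).

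Facial Chodl at day 10 was 414, 423, 446 and 469 RPKM in controls and 164.3, 169.2, 199.9 and 268.5 in SMA mice. Every SMA value lay below every control value, as for 2.18% of all genes tested there, and the SMA mean differed by -54.2%. The difference was -1.15 ± 0.23 (adjusted p = 0.0100), and the adjusted p was 0.0560 without SMA mouse 258 and 0.194 when all 36 groups shared 1 estimate of spread. In these facial samples the astrocyte marker Gfap was higher in SMA, at 11.6 to 22.8 RPKM against 0.726 to 3.00, while the sum of the 5 motor neuron markers was 1617 to 1838 in SMA and 1468 to 1788 in control mice. The sum of 5 astrocyte markers was 38.6 to 64.5 in SMA and 18.7 to 34.2 in control mice, its part in the Chodl difference was not tested, and libraries held 2913000 to 3706000 reads in SMA and 2763000 to 9289000 in control mice.

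Lumbar Chodl at day 10 was 438, 472, 516 and 546 RPKM in controls and 224.6, 279, 318, 373 and 416 in SMA mice, again without overlap (1.47% of all genes with SMA lower) and with a change in the mean of -34.7%. The difference was -0.64 ± 0.14 (adjusted p = 0.0226). It did not pass without control mouse 247 (0.0900), control mouse 254 (0.0731), SMA mouse 250 (0.0997) or SMA mouse 258 (0.0615), nor in a fit of only these 2 groups (0.138) or 1 fit over all groups (0.927). At day 5 lumbar Chodl was already apart, at 575, 603, 652, 741 and 780.5 in controls and 360, 384, 407, 491 and 499 in SMA mice, but that difference (-0.65 ± 0.13) did not pass (adjusted p = 0.0722). It passed without SMA mouse 46 (-0.71, 0.0430) or SMA mouse 61 (-0.70, 0.0382), groups of 0.47% of all genes were apart in this direction, and the day 5 control libraries are those with added reads. At day 2 the means were 489.8 ± 43.3 (SD, n = 4) and 475 ± 64.9 (n = 7), with overlapping values.

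In ocular and hypoglossal neurons Chodl was also lower in SMA at day 10 without passing. Ocular values were 163.1, 194.5, 199.4 and 231.6 in controls and 86.7, 117.8, 125.6, 129 and 138 in SMA mice (-0.72 ± 0.17, adjusted p = 0.0540), with no overlap (1.1% of all genes with SMA lower), and the difference passed without control mouse 252 (-0.81, 0.0498). The sum of the 5 motor neuron markers was also lower there, at 452 to 875 in SMA against 926 to 1024 in controls, and its part was not tested. Left to libraries other than the trochlear ones, the difference was -0.85 with an adjusted p of 0.0108, and without SMA mouse 250, the sample high in red nucleus markers, it was -0.75 (0.0694). Hypoglossal values ran from 130.1 to 339.5, with a median of 208.6, in the 4 controls and 81.7, 92.8, 100.4, 130.1 and 148 in SMA mice (-0.95 ± 0.30, 0.454), and these overlapped. In vagus neurons, where Chodl is low, the difference was -0.01 and in the red nucleus 0.42. The populations were also compared for the size of the genotype effect: none of the 8 genes passed an F test over the 5 motor populations at day 2, 5 or 10 (lowest adjusted p 0.709, none of 24 tests below an unadjusted p of 0.05), where 0.229%, 0.166% and 0.422% of all genes did. A difference of the Chodl effect between populations was therefore not detected.

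**Figure D3:**
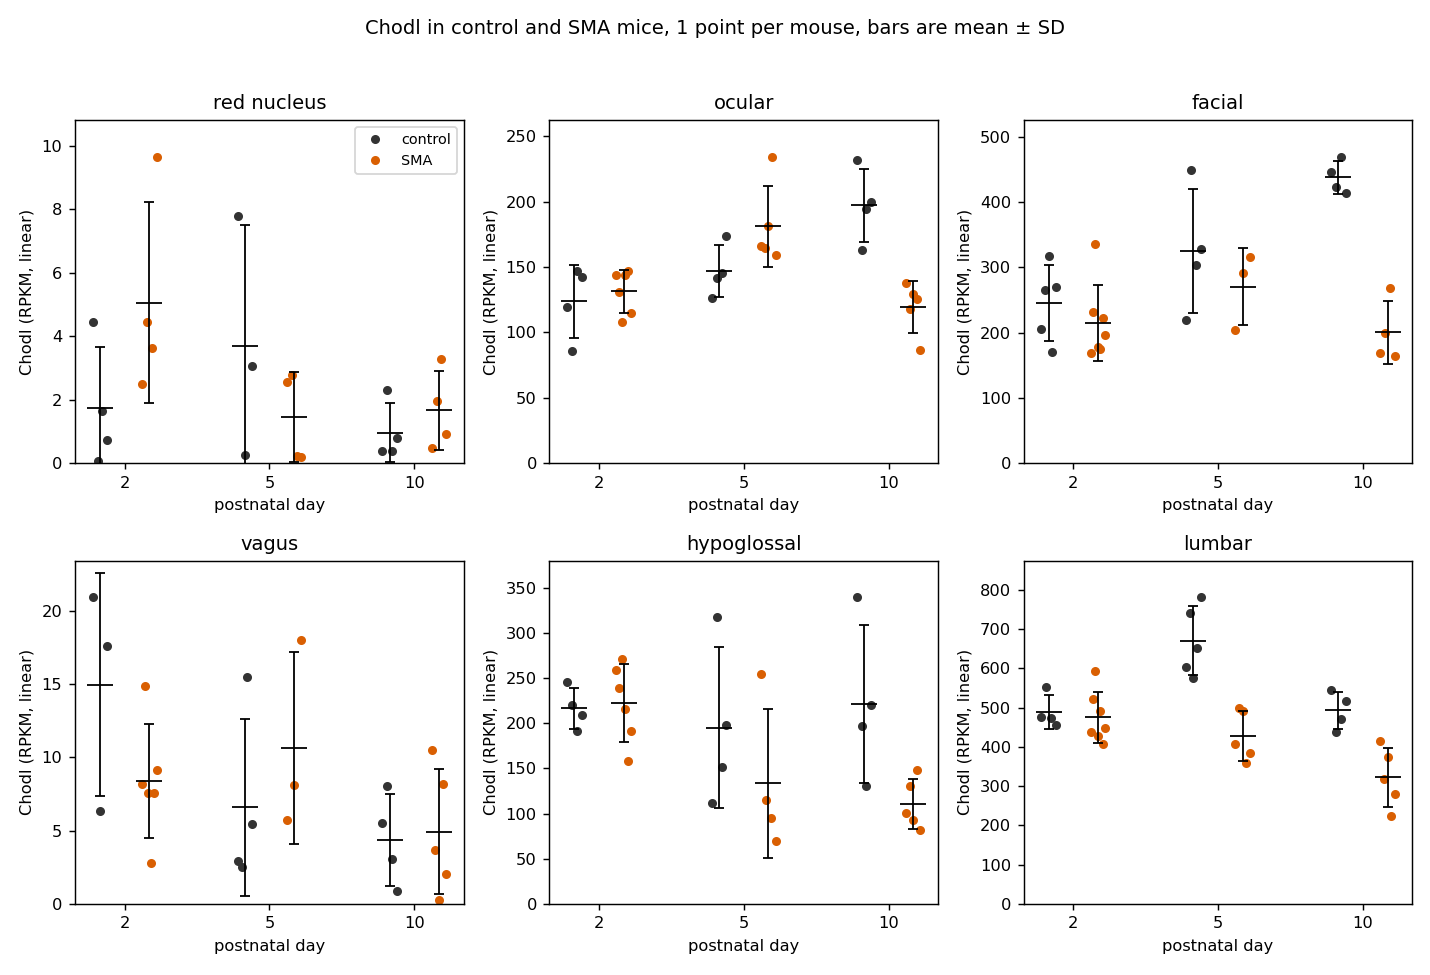
Chodl in RPKM on linear axes that start at 0 and differ between panels, by population and postnatal day, with 1 point per mouse, controls in grey, SMA in orange and bars at the mean ± SD. At day 10 the SMA points lie below all control points in ocular, facial and lumbar neurons, at 86.7 to 138, 164.3 to 268.5 and 224.6 to 416 RPKM.

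For the other 7 genes no genotype difference passed, and the lowest adjusted p was 0.174 for Rbfox3 in lumbar neurons at day 10. Non-overlapping values were seen in 8 of 135 testable combinations of gene, population and day, or 5.93%, all with SMA lower, where over all tested genes 1.11% of combinations were apart with SMA lower and 1.95% with SMA higher. They were 4 for Chodl, at lumbar day 5 and day 10 and at facial and ocular day 10, and 4 for others. Facial Mmp9 at day 5 was 12.6, 13.5, 13.6 and 15.2 RPKM in controls and 1.16, 2.98 and 5.68 in SMA mice (1.8% of all genes were apart in this direction), a difference of -1.93 ± 0.73 (adjusted p = 0.826). Lumbar Mmp9 at day 10 was 52.4, 55.2, 66.1 and 76.3 in controls and 18.7, 38.5, 41.1, 42.3 and 49.4 in SMA mice (-0.75 ± 0.42, adjusted p = 0.583). At day 2 the order was the other way, with control values of 1.72, 7.72, 10.3 and 11.4 and SMA values of 4.09 to 32.6 (1.09 ± 0.40, 0.690).

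Rbfox3 in facial neurons at day 10 was 37.6, 37.9, 42.3 and 54.5 RPKM in controls and 21.2, 23.3, 24.6 and 27.5 in SMA mice (-0.80 ± 0.29, adjusted p = 0.352). In lumbar neurons at day 10 it was 72.8, 84.2, 89.7 and 95.2 in controls and 50.98, 58.7, 59.9, 65.2 and 76.6 in SMA mice (-0.46 ± 0.15, 0.174), overlapping in 1 mouse of each group. Htr1d in the red nucleus at day 5, 22.9 to 26.6 in controls and 13.5 to 21.8 in SMA mice, was the remaining combination without overlap (1.79% of all genes with SMA lower).

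No difference passed for the slow or the gamma markers. Over the 18 comparisons the Esrrb difference ran from -0.44 to 0.49 (lowest adjusted p 0.595), that of Esrrg from -0.49 to 0.73 (0.734) and that of Wnt7a from -0.34 to 0.90 (0.578). Htr1d, testable in 9, ran from -0.81 to 0.00. Spp1 had the widest range, from -2.37 in hypoglossal neurons at day 5 to 0.72 (lowest adjusted p 0.541). That hypoglossal value came from controls at 0.194, 3.03, 28.6 and 105.4 and SMA mice at 0.269, 0.566, 1.77 and 2.90, which overlap. A p above the threshold does not show that these levels were equal.

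An F test in each population asked if the SMA effect on a gene depended on postnatal day. None of 45 tests of a member passed (lowest adjusted p 0.164, for Chodl in ocular neurons, and 7 tests below an unadjusted p of 0.05), where the share of all genes was 0.104% for facial neurons, 0.101% for ocular neurons and 0.0% for each of the other 4 populations. Ocular Chodl had an SMA mean of 181.1 ± 30.9 (SD, n = 5) at day 5, with a control mean of 147 ± 20.0 (n = 4), and of 119.4 ± 19.6 (n = 5) at day 10, with a control mean of 197.2 ± 28.0 (n = 4).

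**Figure D4:**
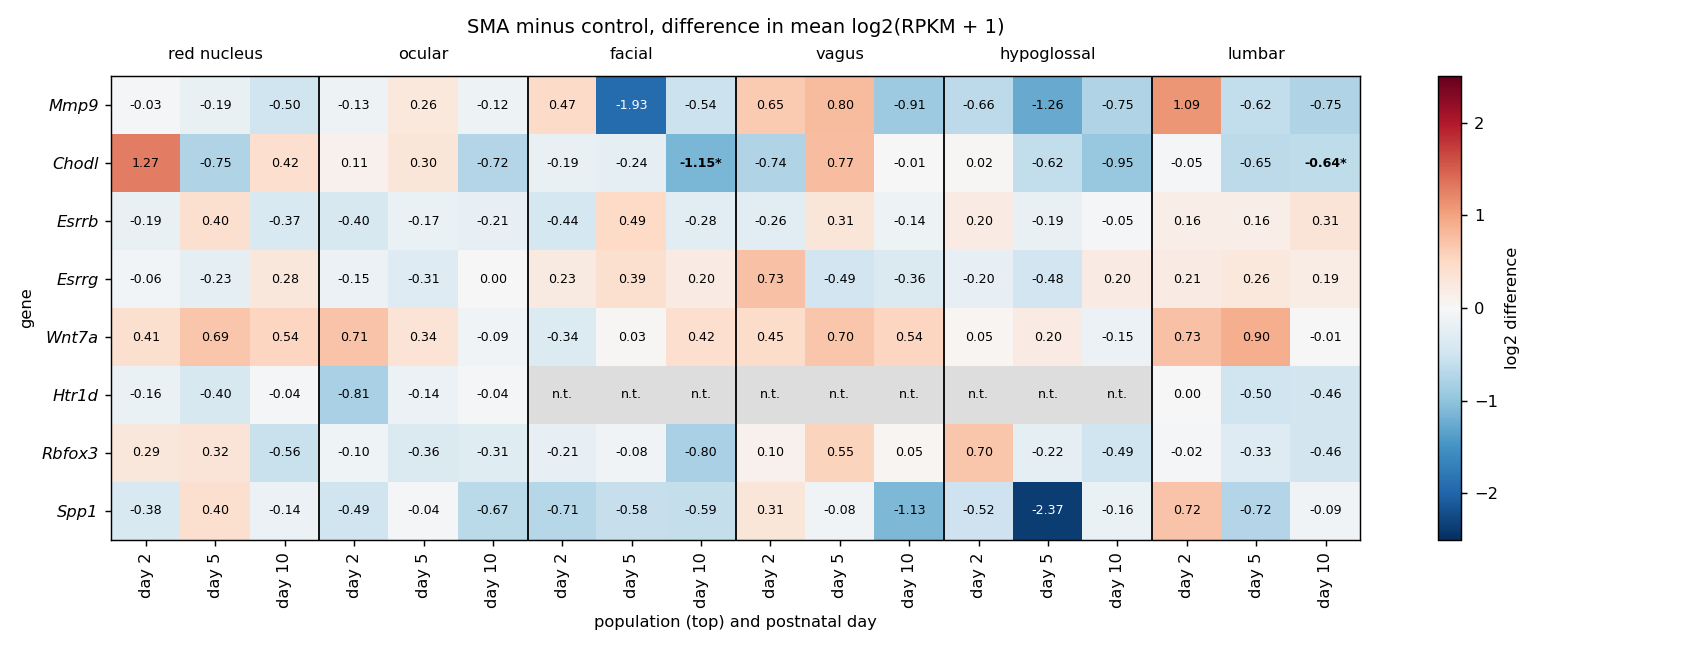
Difference in mean log2(RPKM + 1) between SMA and control mice for the 8 genes (vertical axis) in 18 combinations of population and postnatal day (horizontal axis), blue where SMA is lower and red where it is higher, with n.t. for Htr1d where it did not pass the filter. The starred cells are the 2 that pass an adjusted p of 0.05, Chodl in facial (-1.15) and lumbar neurons (-0.64) at day 10.

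Related genes behaved as follows in the same comparisons. Of the fast list 1 of 5, Chodl itself, passed in facial and in lumbar neurons at day 10, and no other gene of that list did. The list medians were -0.54 and -0.48 against 0.01 and 0.05 for all genes. They are taken over all 5, with Chodl and Mmp9 among them, so they do not describe the other genes alone. None of the slow, gamma or alpha lists passed in any of the 18 comparisons. On the protease list Mmp2, a gelatinase related to Mmp9, was higher in ocular SMA neurons at day 10, at 5.63 to 16.0 against 0 to 1.51 RPKM (2.57 ± 0.55, adjusted p = 0.0211).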

How the data were processed

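Neurons were dissected by laser from frozen sections, and polyA RNA was sequenced with Smart-seq2, per the labels' protocols. The authors deposited RPKM values per gene and library. The submitters' processing notes name STAR 2.4.1c and the builds mm10 and hg19, without their roles. Libraries of 1 mouse and population were averaged, so that a replicate is a mouse. limma 3.58.1 in R 4.3.3 was run on log2(RPKM + 1) with a mean-variance trend, Benjamini-Hochberg adjustment within each comparison and a threshold of 0.05. Genes needed an RPKM of 1 in as many samples as the smallest group. Population differences and their genotype tests came from 1 fit over all 36 groups, and age and genotype comparisons from 1 fit per population. The fits were tested on simulated data.

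Reads per library were recovered from the steps of low RPKM values, of which 59.8% to 76.4% per library lay within 0.1% of a whole number of reads. Limits for genes at 0 use 3 reads and gene lengths from GENCODE M21, and cover counting error only. The labels tie samples of several populations to 1 mouse. Deviations of same-mouse samples from their group means correlated at -0.042 to 0.145 (median 0.030, 150 pairs), against -0.143 to 0.121 for other mice of the same day, and the mouse was used as a block in an alternative.

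The members and gene lists were chosen with earlier results of these data known. Text names the 8 members, Smn1, up to 4 called genes per list and comparison by size of change, and for each member the 3 genes nearest in pattern. A few uncalled list genes, and marker genes of other cells, were named after their values were seen. One gene of a marker list is not reported here and was left out of that list's counts and sums.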

Additional observations from a re-analysis of the deposited data

Results flagged for a closer look

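Single mice stood apart from their group in 16 of 226 combinations of gene and group with 4 to 10 mice and a mean of at least 1 RPKM, where chance alone marks about 1 in 20. In each case the gap to the nearest mouse was large against the range of the group by Dixon's criterion. Values are in RPKM.

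Control mouse 244 at day 2 was marked 4 times, in 3 groups. It was highest for Mmp9 in the red nucleus (13.2, next 1.03), for Htr1d in lumbar neurons (3.87, next 0.879) and for Spp1 in hypoglossal neurons (81.1, next 17.2), and lowest for Rbfox3 in lumbar neurons (54.9, next 63.5). SMA mouse 199 at day 10 was highest in vagus neurons for Mmp9 (19.4, next 1.43) and Wnt7a (9.58, next 0.692). SMA mouse 258 at day 10 was highest in ocular neurons for Esrrb (43.5, next 29.2) and Htr1d (14.0, next 10.5). Control mouse 71 at day 5 was lowest for Esrrb in lumbar neurons (4.85, next 9.50) and highest for Rbfox3 in facial neurons (48.4, next 35.4).

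In hypoglossal SMA neurons Mmp9 was 14.6 in mouse 206 at day 2 (next 3.48) and only 0.828 in mouse 196 at day 10 (next 6.62), and Wnt7a was 89.3 in mouse 61 at day 5 (next 28.5). Chodl was 335 in facial neurons of SMA mouse 38 at day 2 (next 231.8). Esrrg was 87.1 in ocular neurons of SMA mouse 16 at day 2 (next 67.3), and in control mouse 247 at day 10 red nucleus Htr1d was lowest, at 14.5 (next 30.2).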

How the results depend on the processing

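Of the member tests, 43 population differences, 9 postnatal changes and 2 genotype differences passed. The 2 genotype differences were the least stable: 0 passed in 1 fit over all 36 groups and 1 in fits of only the 2 groups compared, and leaving out single mice gave 0 to 3, with 0 without SMA mouse 258 and 1 without control mouse 247 or 254. The cause was not tested. The other settings gave 2 or 3. Population differences numbered 42 or 43 under the other settings and 41 to 44 without single mice, and postnatal changes 7 to 10 in both. The 7 of 1 fit over all groups were 5 of the 9 and 2 others. No test of a member passed for a change of the genotype difference with age or between populations under any setting run. With the mouse as a replicate block the paired fit gave 43 population differences and 0 differences of the genotype effect between populations, and changed no call. No direction reversed in the 63 single-gene results. These 63 are the calls counted above and some genotype differences that had not passed. In 1 fit over all groups 6 calls were lost, 4 of the 9 postnatal changes and the 2 genotype differences. Of all the calls, 3 were lost with a pseudocount of 0.1, 2 without a filter on low values and 1 under quantile normalization. Depth limits low genes: 3 reads correspond to a median of 0.159 RPKM for Htr1d and 0.144 for Mmp9.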
